A study of Homo sapiens with 24 samples.

Results

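The hnRNP and SR splicing regulators examined here are 33 genes: 18 genes of heterogeneous nuclear ribonucleoproteins (HNRNPA0 to HNRNPUL1), 10 genes of serine/arginine-rich splicing factors (SRSF1 to SRSF11), the related SR-like genes TRA2A and TRA2B, TARDBP, which encodes TDP-43, and the polypyrimidine tract-binding protein genes PTBP1 and PTBP2. They were picked by gene symbol, with earlier results of these data known, and all 33 were listed in each table, among 33561 (LAN5), 30271 (IMR5), 32760 (SK-N-FI) or 29328 genes (SK-N-BE(2)). The choice rested on how these genes responded to GSK-J4, so their responses within each line are given as a description, beside the share of all genes called. All 33 had an adjusted p-value in every line.

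Polyadenylated RNA was sequenced from 4 established human neuroblastoma cell lines, each exposed to 1 µM GSK-J4 for 72 hours or left untreated, with 3 libraries per group and 24 libraries in 8 groups. GSK-J4 is a cell-permeable inhibitor of the histone demethylases KDM6A and KDM6B. The groups were LAN5 with GSK-J4 and LAN5 untreated, IMR5 with GSK-J4 and IMR5 untreated (both sensitive to the compound and MYCN-amplified), SK-N-FI with GSK-J4 and SK-N-FI untreated (sensitive, MYCN wildtype), and SK-N-BE(2) with GSK-J4 and SK-N-BE(2) untreated (resistant, MYCN-amplified). No vehicle is named for the untreated cells. One line stands for resistance and one for wildtype MYCN, so a difference from either line cannot be told apart from any other property of that line.

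An hnRNP is a nuclear protein that coats new transcripts as they leave the polymerase, and many hnRNPs bind silencer sequences in exons or introns and hold back the use of nearby splice sites. SR proteins carry a domain rich in arginine and serine, bind enhancer sequences in exons and bring the spliceosome to them, so both groups together set which exons a transcript keeps. Many of these genes limit their own level through an exon that, once included, sends the messenger RNA to nonsense-mediated decay. MYC is known to raise the transcription of HNRNPA1, HNRNPA2B1, PTBP1 and SRSF1, and in developing neurons PTBP1 gives way to PTBP2.

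Each line has 1 comparison table made by the authors, with a mean normalized count over the line's libraries, a log2 fold change, its standard error and an adjusted p-value per gene, and no value of a single library was used. Depth per library is therefore unknown, and no standard deviation between replicates can be given. Log2 fold changes below are for GSK-J4 over untreated, after removing the shrinkage prior of the deposited values, with the standard error after the sign ±; for the members that step moved no value by more than 0.0253. Group levels are implied means, worked out from the deposited mean and the fold change on the assumption that 3 libraries of each group entered the mean. Where a gene is said to have fallen or risen at a value, the value is this log2 change. A gene is said to have risen or fallen where the authors' deposited adjusted p was under 0.05. The tables do not state their direction: it was read from BBC3, higher in the sensitive lines, and from MT2A and SLC30A1 in SK-N-BE(2). The table for SK-N-FI was assigned by the likeness of its short name and by elimination. In that table MYCN had a mean of 116.4, against 24408.5 in LAN5, 11397.4 in IMR5 cells and 38907.5 in SK-N-BE(2). SK-N-FI is the line labelled as MYCN wildtype.

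Marker genes of cell types were looked up in each line, which cannot tell 1 neuroblastoma line from another. All 10 neuroblastoma markers, such as HAND2, had a mean of 10 or more in LAN5 and SK-N-BE(2). In IMR5 and SK-N-FI all did but TH, which was not listed. With GSK-J4, 9 of 10 fell and none rose in LAN5, 5 of 9 fell and 3 rose in IMR5 cells, 7 of 9 fell and 1 rose in SK-N-FI cells, and 7 of 10 fell and none rose in SK-N-BE(2). Their median log2 changes were -1.03, -0.21, -0.72 and -0.22 in that order of lines, and their part in the results below was not tested. Over all genes tested, 19.2%, 21.6%, 14.8% and 0.858% fell and 22.5%, 22.6%, 16.8% and 1.62% rose in the same order. The Schwann and glial marker SOX10 was listed in no table, and the summed means of that list were between 3.47 and 14.2 CPM (a mean over the sum of all means in its table, per 1000000). Neuroblastoma markers summed to 2371 CPM in LAN5, 1451 in IMR5 cells, 1599 in SK-N-FI cells and 2714 in SK-N-BE(2). Immune and endothelial markers summed to at most 10.1 CPM, in SK-N-FI cells. Fibroblast and muscle markers summed to 2105 CPM in SK-N-BE(2), against 91.3 to 180 in the sensitive lines. The median gene tested had a log2 change of 0.12 in LAN5, 0.02 in IMR5 cells, 0.01 in SK-N-FI cells and -0.0003 in SK-N-BE(2). In bulk RNA of this kind, fewer cells of a type and less RNA per cell cannot be told apart.

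Stretches of promoter are shown first because they are the sequences through which MYC proteins, the products of the amplified gene among them, are known to act. Of the 33 members, 30 were found in the RefSeq table of promoters (GRCh38.p14), with 44 start sites between them. HNRNPA1, SRSF2 and TRA2A are named only. The hexamer CACGTG, the core of the E-box that MYC and its partner MAX bind, reads the same on both strands. It stood in the 250 bases upstream of the start in 7 of 44 member windows (15.9%), against 6.34% of all 35116 windows of that length. Member windows also held more G and C, with a median of 65%, against 58% over all windows, and the part of this in the share was not tested. The windows with the hexamer belonged to HNRNPA3, HNRNPD, HNRNPDL, HNRNPH2, HNRNPH3 and HNRNPM. Of the genes named above as raised by MYC, HNRNPA2B1, PTBP1 and SRSF1 had no CACGTG in any window, and HNRNPA1 was not found. Each stretch below is written 5′ to 3′ on the strand of its gene, with the hexamer in capitals.
HNRNPA3, chr2:177212711-177212740, plus strand: cggaaaacgcgtCACGTGacgactggcccc
HNRNPD, chr4:82374001-82374030, minus strand: gcgctctcgcgtCACGTGaccgggacgcgc
HNRNPDL, first start site, chr4:82430364-82430393, minus strand: agaggcccggggCACGTGcagaaaggagcc
HNRNPDL, second start site, chr4:82430572-82430601, minus strand: ggagcccgagacCACGTGggcaggaaaagg
HNRNPH2, distal copy, chrX:101408168-101408197, plus strand: ccgagagttgctCACGTGaccgagatctca
HNRNPH2, proximal copy, chrX:101408201-101408221, plus strand: gacgtaggcgctCACGTGatt
HNRNPH3, chr10:68331631-68331660, plus strand: tgccggtcgaacCACGTGgggccctttccg
HNRNPM, chr19:8444921-8444950, plus strand: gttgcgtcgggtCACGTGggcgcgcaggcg

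In HNRNPD, HNRNPH2, HNRNPH3 and HNRNPM the hexamer nearest the start lay 27, 9, 50 and 42 bases upstream of it, and in HNRNPA3 71 bases. At the start sites of HNRNPDL it lay 156 and 127 bases upstream. HNRNPH3 has further start sites, whose windows hold no CACGTG. All windows with the hexamer touch annotated exons. A single exon covers all 250 bases at HNRNPH3 and HNRNPM, 231 at HNRNPA3 and 176 at the first start of HNRNPDL. The windows of HNRNPH2 and of the second start of HNRNPDL overlap exons of other genes only, GLA and ENOPH1. A match of letters is a description of these windows and not evidence of binding. MYCN itself had log2 changes of -1.91 ± 0.0489 in LAN5, -1.08 ± 0.0709 in IMR5 cells, -0.32 ± 0.215 in SK-N-FI cells and 0.11 ± 0.0416 in SK-N-BE(2), of which the first and second passed the test. Its part in the changes of the members was not tested. The box CCAAT, counted on either strand, stood in 18 member windows (40.9%), against 32.0% of all windows.

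Together the 33 genes had summed means of 16222 CPM in LAN5, 16528 in IMR5 cells, 10806 in SK-N-FI cells and 16008 in SK-N-BE(2), over treated and untreated libraries. SK-N-FI thus had the lowest summed level over these pooled libraries. The pooled values include the GSK-J4 libraries. Their implied sums were 0.602, 0.559, 0.727 and 0.971 times the untreated ones in the same order of lines. The tables were normalized separately, so levels across lines are a description. Per kilobase of annotated exon (GENCODE v29), HNRNPA1, a shuttling protein that represses exons, had the highest level in every line, with 386 CPM per kilobase in LAN5, 415 in IMR5 cells, 276 in SK-N-FI cells and 369 in SK-N-BE(2). PTBP2, the neuronal polypyrimidine tract-binding protein, had the lowest in every line, with 5.61, 6.22, 4.10 and 3.43 in the same order of lines. With the longest coding transcript as the length, a choice added after the data were seen, PTBP2 stayed last and HNRNPA2B1 came first in LAN5 and SK-N-BE(2).

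Between these ends, HNRNPAB differed most between lines by position in the order. Its level per kilobase was 220 in LAN5, rank 2 of 33, 127 in IMR5 cells, rank 6, 184 in SK-N-BE(2), rank 3, and 32.5 in SK-N-FI cells, rank 23. HNRNPAB is a relative of the A/B proteins that binds both RNA and single-stranded DNA. HNRNPA3, HNRNPA2B1 and HNRNPK stood between 109 and 210 CPM per kilobase across lines. SRSF1 had the highest level among the SR genes in every line, 120, 111, 78.2 and 135 CPM per kilobase in LAN5, IMR5, SK-N-FI and SK-N-BE(2). With the longest coding transcript as the length, SRSF11 (152 CPM per kilobase) and SRSF10 (126) stood above SRSF1 (119) in IMR5 cells.

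**Figure D1:**
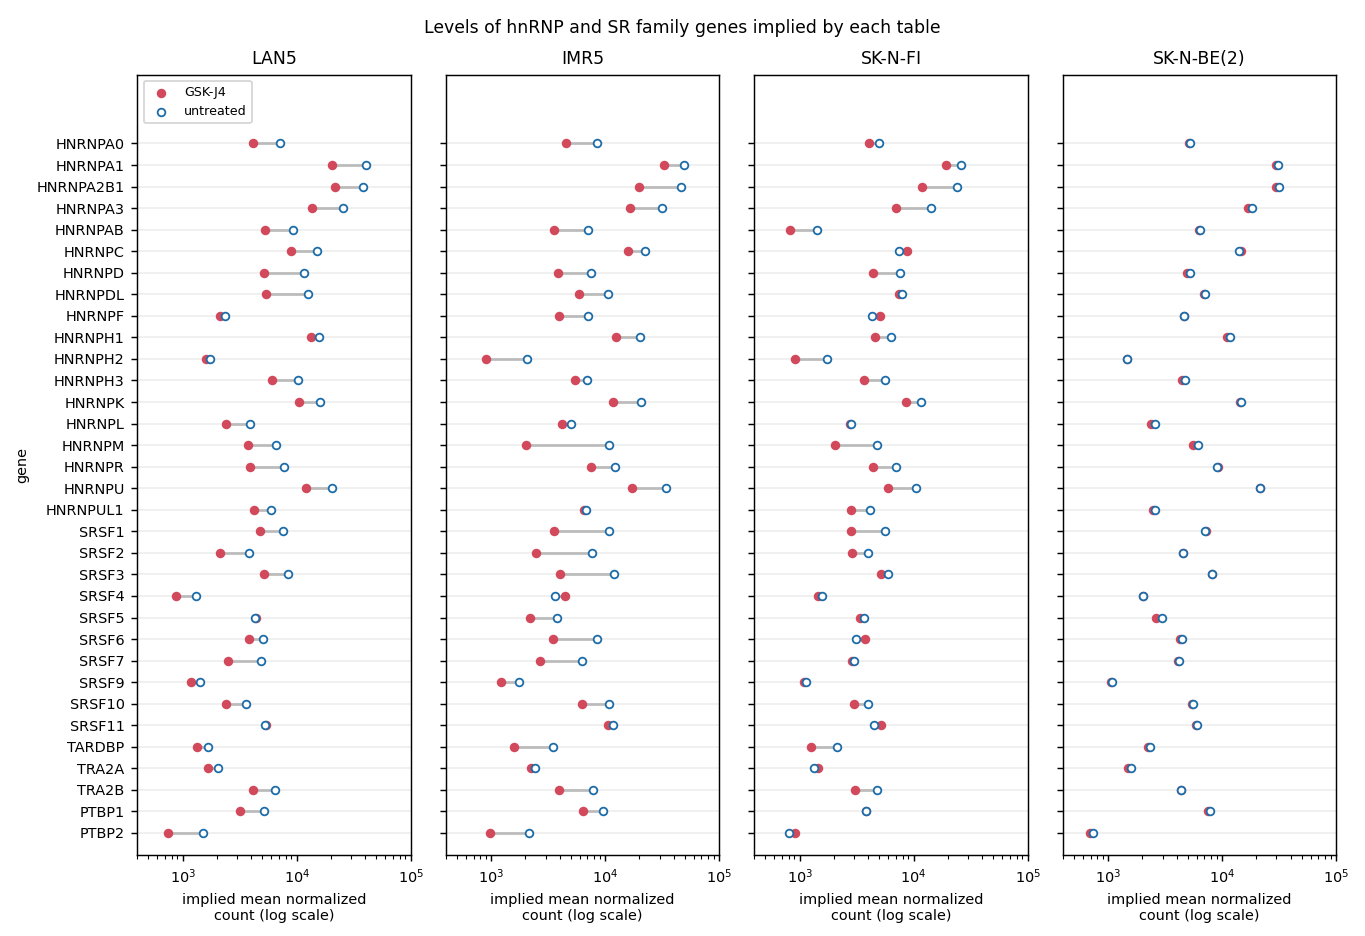
Implied mean normalized counts of the 33 genes with GSK-J4 (filled points) and untreated (open points) in each line, on a log axis; grey bars join the pair of a gene, and no replicate error can be drawn. In IMR5 HNRNPM stood at 2021 with GSK-J4 and 10906 untreated, while in SK-N-BE(2) the points of nearly every pair lie on each other.

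With GSK-J4, 29 of the 33 genes fell in LAN5 and none rose. In IMR5 29 fell and SRSF4 rose, and in SK-N-FI 19 fell and HNRNPF and SRSF6 rose. In SK-N-BE(2), the resistant line, HNRNPM and SRSF5 fell and 31 genes passed the test in neither direction. Of all genes tested, 19.2% fell in LAN5, 21.6% in IMR5 cells, 14.8% in SK-N-FI cells and 0.858% in SK-N-BE(2). Higher calls made up 22.5%, 22.6%, 16.8% and 1.62% of genes in the same order of lines. All members are strongly expressed, and where the mean was 500 or more the shares that fell were 44.0%, 40.1%, 23.2% and 1.25%. Higher calls among those strong genes were 28.0%, 33.6%, 27.2% and 2.34%. The rule that picked the members used these contrasts, so nothing is read from the counts.

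The median log2 change of the 33 genes was -0.70 in LAN5, -0.85 in IMR5 cells, -0.43 in SK-N-FI cells and -0.04 in SK-N-BE(2). For the genes whose mean was 500 or more, medians were -0.11, -0.05, 0.03 and 0.01. The implied counts of the 33 genes summed to 188408 with GSK-J4 and 313150 untreated in LAN5, a ratio of 0.602. The same ratio was 0.559 in IMR5 cells, 0.727 in SK-N-FI cells and 0.971 in SK-N-BE(2). A log2 change of -1 or lower was seen for 3 genes in LAN5, 12 in IMR5 cells, 3 in SK-N-FI and none in SK-N-BE(2). No share over all genes was worked out for that cut, so nothing is read from these counts.

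**Figure D2:**
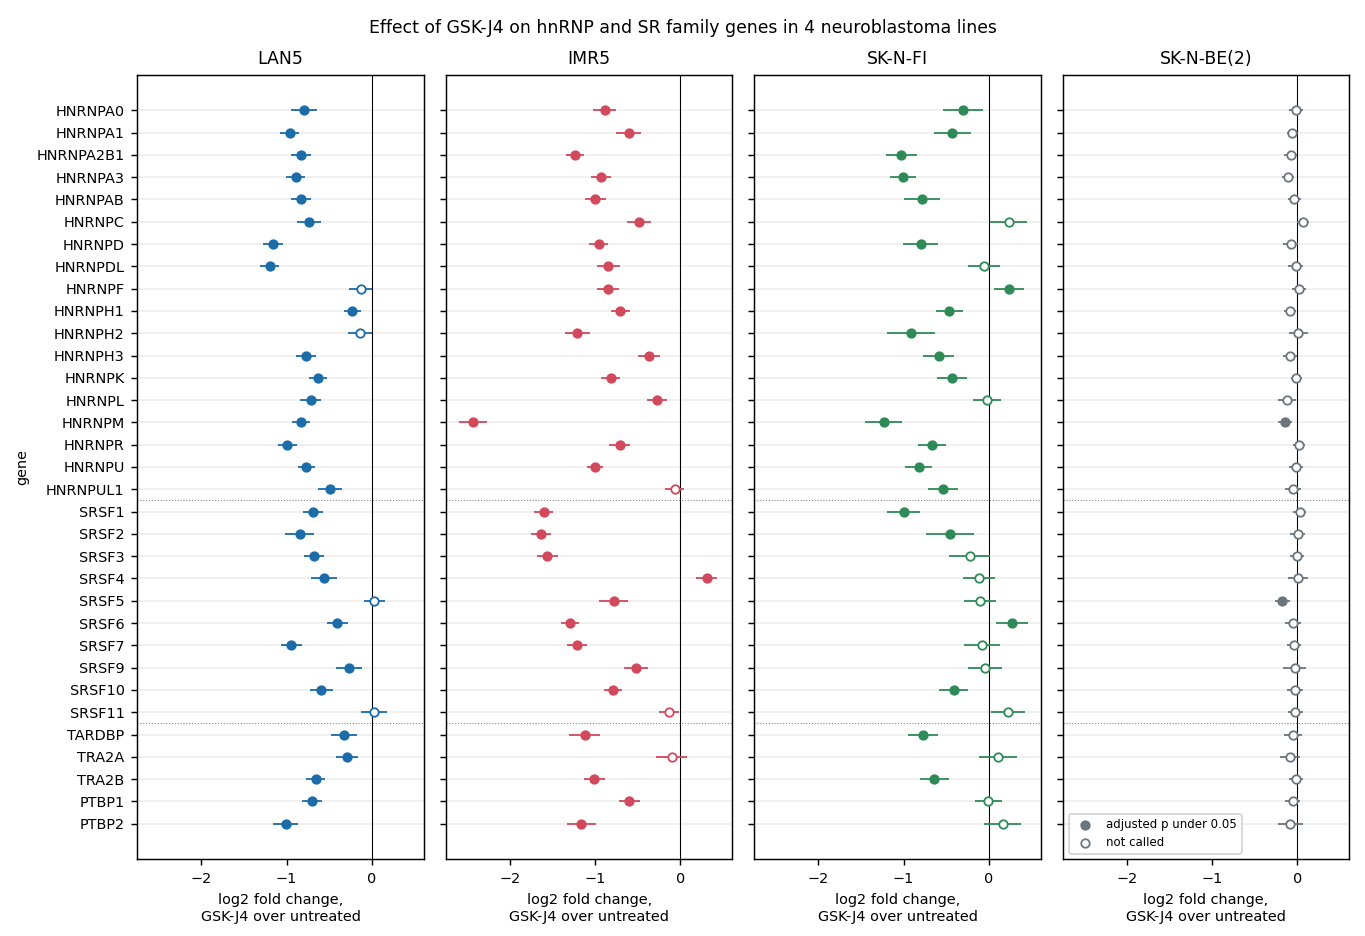
Log2 fold change of each gene, GSK-J4 over untreated, in the 4 lines, with 95% intervals; filled points passed an adjusted p of 0.05 in the authors' tables, and dotted lines part the hnRNP, SR and other genes. Of 33 points each, 31 in LAN5, 32 in IMR5 cells and 27 in SK-N-FI lie left of 0, and those of SK-N-BE(2) lie between -0.18 and 0.07.

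In all 3 sensitive lines 17 genes fell: HNRNPA0, HNRNPA1, HNRNPA2B1, HNRNPA3, HNRNPAB, HNRNPD, HNRNPH1, HNRNPH3, HNRNPK, HNRNPM, HNRNPR, HNRNPU, SRSF1, SRSF2, SRSF10, TARDBP and TRA2B. Of 18599 genes tested in all 3 lines, 5.83% fell in each, and of the 4975 whose mean was 500 or more in each, 12.0% did. A further 8 fell in LAN5 and IMR5 without passing the test in SK-N-FI cells, namely HNRNPC, HNRNPDL, HNRNPL, SRSF3, SRSF7, SRSF9, PTBP1 and PTBP2. Opposite calls in a pair of lines were made for 3 members, HNRNPF, SRSF4 and SRSF6. SRSF11 was called in no line. For the patterns after the first, no share over all genes was worked out, so they are a description only.

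Among the hnRNPs, 16 of 18 fell in LAN5, 17 in IMR5 cells, 14 in SK-N-FI cells and 1 in SK-N-BE(2), and HNRNPF rose in SK-N-FI cells. Their median log2 changes were -0.79, -0.85, -0.56 and -0.04 in that order of lines. Among all genes whose mean was 500 or more, 44.0%, 40.1%, 23.2% and 1.25% fell in that order. Nothing is read from the hnRNP counts. The A/B proteins, which package transcripts and repress exons, fell in each sensitive line. HNRNPA1 (ENSG00000135486, chromosome 12, 54280193 to 54287088, plus strand, in GENCODE v29 on GRCh38) had implied means of 20602 with GSK-J4 against 40241 untreated in LAN5, 32613 with GSK-J4 against 49628 untreated in IMR5 cells, 19257 with GSK-J4 against 25973 untreated in SK-N-FI cells and 29510 with GSK-J4 against 30794 untreated in SK-N-BE(2). GSK-J4-treated cells were thus at the lower level in the 3 sensitive lines, and the levels of SK-N-BE(2) lay close together. The log2 changes were -0.97 ± 0.0552 in LAN5, -0.61 ± 0.0748 in IMR5 cells, -0.43 ± 0.110 in SK-N-FI cells and -0.06 ± 0.0339 in SK-N-BE(2). Rows for pseudogenes and like copies of HNRNPA1 summed to between 8.73% and 11.2% of its mean, so reads shared with them may be counted elsewhere.

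HNRNPA2B1 (ENSG00000122566, chromosome 7, 26173057 to 26201529, minus strand), which binds similar motifs and also sorts RNAs for transport, had implied means of 21664 with GSK-J4 against 38445 untreated in LAN5, 19649 with GSK-J4 against 46380 untreated in IMR5 cells, 11779 with GSK-J4 against 23969 untreated in SK-N-FI cells and 29905 with GSK-J4 against 31581 untreated in SK-N-BE(2). Its log2 changes were -0.83 ± 0.0601 in LAN5, -1.24 ± 0.0529 in IMR5 cells, -1.02 ± 0.0931 in SK-N-FI cells and -0.08 ± 0.0396 in SK-N-BE(2). The opposite-strand gene CBX3 shares 3.97% of the exon bases of HNRNPA2B1 and reaches 45% of its mean, and whether counting used the strand is not given in the sources used here. HNRNPA3 changed by -0.90 ± 0.0567 in LAN5, -0.93 ± 0.0615 in IMR5 cells, -1.0 ± 0.0786 in SK-N-FI cells and -0.11 ± 0.0371 in SK-N-BE(2), the narrowest range of the 5 A/B genes over the sensitive lines. HNRNPAB fell at -0.83, -1.0 and -0.78 on the log2 scale in LAN5, IMR5 and SK-N-FI, where the line with the low level, SK-N-FI, had 825 with GSK-J4 and 1419 untreated. HNRNPA0, an A/B protein that stabilizes mRNAs with AU-rich elements, fell at -0.80 in LAN5 and -0.89 in IMR5 cells. In SK-N-FI its change was -0.30 ± 0.118, with an adjusted p of 0.0346 in the authors' deposited table that became 0.0501 when the adjustment ran over all genes with a p-value.

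HNRNPM (ENSG00000099783, chromosome 19, 8444767 to 8489114, plus strand), a regulator that binds GU-rich RNA and sits in a large assembly with RBFOX proteins, fell most of all members in IMR5 and in SK-N-FI cells. Its implied means were 3729 with GSK-J4 against 6645 untreated in LAN5, 2021 with GSK-J4 against 10906 untreated in IMR5 cells, 2047 with GSK-J4 against 4808 untreated in SK-N-FI cells and 5589 with GSK-J4 against 6185 untreated in SK-N-BE(2). The treated level in IMR5 was 0.185 times the untreated one, against 0.561 in LAN5, 0.426 in SK-N-FI cells and 0.904 in SK-N-BE(2). The log2 changes were -0.83 ± 0.0555 in LAN5, -2.43 ± 0.0836 in IMR5 cells, -1.23 ± 0.111 in SK-N-FI cells and -0.15 ± 0.0390 in SK-N-BE(2). HNRNPM is 1 of the 2 members that passed the test in SK-N-BE(2).

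HNRNPD and HNRNPDL, close relatives that bind AU-rich elements and steer mRNA decay, showed the largest falls in LAN5. HNRNPDL stood at 5432 against 12477 in LAN5, 5932 against 10663 in IMR5 cells, 7509 against 7831 in SK-N-FI cells and 6959 against 7059 in SK-N-BE(2), GSK-J4 against untreated. Its log2 changes were -1.20 ± 0.0563 in LAN5, -0.85 ± 0.0699 in IMR5 cells, -0.06 ± 0.0962 in SK-N-FI cells and -0.02 ± 0.0443 in SK-N-BE(2), so SK-N-FI and SK-N-BE(2) both lay within 2 standard errors of 0. HNRNPD changed by -1.16 ± 0.0617 in LAN5, -0.96 ± 0.0570 in IMR5 cells, -0.80 ± 0.106 in SK-N-FI cells and -0.08 ± 0.0434 in SK-N-BE(2) and fell in all 3 sensitive lines. These neighbours on chromosome 4 therefore had the same call in LAN5 and in IMR5 cells, and unlike calls in SK-N-FI cells.

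HNRNPC, which binds uridine tracts and keeps Alu-derived exons out of messages, fell at -0.74 ± 0.0716 in LAN5 and -0.49 ± 0.0724 in IMR5 cells. In SK-N-FI the value was 0.23 ± 0.112, which did not pass (adjusted p = 0.103 in the authors' deposited table), with 8812 treated and 7506 untreated. Its like copies reached at most 2.05% of its mean. HNRNPL, a binder of CA repeats, fell at -0.72 ± 0.0644 in LAN5 and -0.27 ± 0.0609 in IMR5 cells, with -0.02 ± 0.0845 in SK-N-FI cells. HNRNPK, a protein with KH domains that binds cytidine-rich sequences, fell in the sensitive lines, with implied means, GSK-J4 against untreated, of 10419 against 16127 in LAN5, 11715 against 20671 in IMR5 cells and 8528 against 11514 in SK-N-FI cells.

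HNRNPU, a nuclear scaffold protein that also holds chromatin, fell to 12086 in GSK-J4-treated LAN5 against 20583 untreated, to 17162 against 34335 in IMR5 and to 5902 against 10440 in SK-N-FI cells. Its log2 changes were -0.77 ± 0.0496 in LAN5, -1.0 ± 0.0496 in IMR5 cells and -0.82 ± 0.0809 in SK-N-FI cells, and -0.01 ± 0.0418 in SK-N-BE(2), where it was not called. HNRNPR, a neuronal mRNA transport factor as well as a splicing regulator, changed by -0.99 ± 0.0592 in LAN5, -0.71 ± 0.0623 in IMR5 cells, -0.67 ± 0.0826 in SK-N-FI cells and 0.02 ± 0.0376 in SK-N-BE(2). HNRNPUL1, a relative of HNRNPU, fell in LAN5 and SK-N-FI at -0.49 and -0.54, while IMR5 gave -0.07 ± 0.0582 (adjusted p = 0.368 in the authors' deposited table). It is the only hnRNP member not called in IMR5 cells.

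The F/H proteins bind runs of guanosine. HNRNPF (ENSG00000169813, chromosome 10, 43385617 to 43409166, minus strand) had implied means of 2146 with GSK-J4 against 2355 untreated in LAN5, 3957 with GSK-J4 against 7141 untreated in IMR5 cells, 5087 with GSK-J4 against 4331 untreated in SK-N-FI cells and 4667 with GSK-J4 against 4600 untreated in SK-N-BE(2). It fell in IMR5 at -0.85 ± 0.0653 and rose in SK-N-FI at 0.23 ± 0.0881, with an adjusted p of 0.0293 in the authors' deposited table for the rise, and was called in neither of the other lines. HNRNPH2, the X-linked paralogue, fell to 899 against 2078 in IMR5 and to 913 against 1724 in SK-N-FI cells. In LAN5 it changed by -0.14 ± 0.0723 (adjusted p = 0.124 in the authors' deposited table). HNRNPH1 fell in all 3 sensitive lines, at -0.23, -0.70 and -0.47, and so did HNRNPH3, at -0.77, -0.37 and -0.59 on the log2 scale in LAN5, IMR5 and SK-N-FI.

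Of the 10 SR genes, 8 fell in LAN5, 8 in IMR5 cells, 3 in SK-N-FI cells and 1 in SK-N-BE(2). Among all genes whose mean was 500 or more, 44.0%, 40.1%, 23.2% and 1.25% fell in the same order of lines. Nothing is read from the counts of the class. SRSF4 rose in IMR5 and SRSF6 in SK-N-FI cells. Median log2 changes were -0.58, -1.01, -0.11 and -0.03 in LAN5, IMR5, SK-N-FI and SK-N-BE(2). SRSF1 (ENSG00000136450, chromosome 17, 58003360 to 58007346, minus strand), the founding SR protein and a known oncoprotein, had implied means of 4747 with GSK-J4 against 7664 untreated in LAN5, 3580 with GSK-J4 against 10862 untreated in IMR5 cells, 2803 with GSK-J4 against 5601 untreated in SK-N-FI cells and 7280 with GSK-J4 against 7136 untreated in SK-N-BE(2). The treated level was the lower one in each sensitive line and not in SK-N-BE(2). Log2 changes were -0.69 ± 0.0623 in LAN5, -1.60 ± 0.0564 in IMR5 cells, -1.0 ± 0.10 in SK-N-FI cells and 0.03 ± 0.0390 in SK-N-BE(2). An annotated same-strand gene that no table used here lists, AC015813.2, shares 56.6% of the exon bases of SRSF1.

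SRSF2, whose older name is SC35, had implied means of 2107 with GSK-J4 against 3794 untreated in LAN5, 2487 with GSK-J4 against 7719 untreated in IMR5 cells, 2878 with GSK-J4 against 3956 untreated in SK-N-FI cells and 4572 with GSK-J4 against 4560 untreated in SK-N-BE(2). Its changes were -0.85 ± 0.0859 in LAN5, -1.63 ± 0.0610 in IMR5 cells, -0.46 ± 0.145 in SK-N-FI cells and 0.00 ± 0.0453 in SK-N-BE(2), the largest fall of an SR gene in IMR5 cells. Its exons share 36.7% of their bases with MFSD11 on the opposite strand, whose mean reached 17.0% of that of SRSF2. SRSF3, the smallest SR protein and a factor in mRNA export, fell to 5203 against 8331 in LAN5 and to 4017 against 11857 in IMR5 cells. In SK-N-FI it had 5127 with GSK-J4 and 5998 untreated, a change of -0.23 ± 0.125 that did not pass the test (adjusted p = 0.162 in the authors' deposited table).

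SRSF6 (ENSG00000124193, chromosome 20, 43457928 to 43464247, plus strand), an SR protein with paired RNA recognition motifs, is the member whose call turned between the amplified sensitive lines and SK-N-FI. Its implied means were 3798 with GSK-J4 against 5031 untreated in LAN5, 3474 with GSK-J4 against 8510 untreated in IMR5 cells, 3757 with GSK-J4 against 3120 untreated in SK-N-FI cells and 4271 with GSK-J4 against 4432 untreated in SK-N-BE(2). Treated cells were lower in LAN5 and IMR5 and higher in SK-N-FI cells. The log2 changes were -0.41 ± 0.0607 in LAN5, -1.29 ± 0.0555 in IMR5 cells, 0.27 ± 0.0957 in SK-N-FI cells and -0.05 ± 0.0459 in SK-N-BE(2). SRSF7, an SR protein with a zinc knuckle, fell at -0.95 ± 0.0632 in LAN5 and -1.22 ± 0.0607 in IMR5 cells, and its -0.08 ± 0.107 in SK-N-FI did not pass. The rises of SRSF6 and HNRNPF in SK-N-FI had adjusted p-values of 0.0193 and 0.0293 in the authors' deposited table.

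SRSF4 (ENSG00000116350, chromosome 1, 29147743 to 29181987, minus strand), a long relative of SRSF6, had implied means of 882 with GSK-J4 against 1303 untreated in LAN5, 4468 with GSK-J4 against 3616 untreated in IMR5 cells, 1435 with GSK-J4 against 1556 untreated in SK-N-FI cells and 2014 with GSK-J4 against 2006 untreated in SK-N-BE(2). It fell in LAN5 at -0.56 ± 0.0757 and rose in IMR5 at 0.31 ± 0.0618, the only called rise among the 33 genes in the MYCN-amplified lines. SRSF5, first described in regenerating liver, fell in IMR5 at -0.78 ± 0.0870 and, with 2651 treated against 2996 untreated, in SK-N-BE(2) by -0.18 ± 0.0469. In LAN5 it was 0.03 ± 0.0614 and in SK-N-FI -0.10 ± 0.0971, neither of them called.

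SRSF10, a repressor of splicing when dephosphorylated, fell in the sensitive lines at -0.59, -0.80 and -0.42 on the log2 scale. SRSF9 fell at -0.27 in LAN5 and -0.52 in IMR5 cells, with -0.05 in SK-N-FI cells, but 46.2% of its exon bases lie over GATC on the opposite strand, whose mean reached 53.4% of its own. SRSF11, an SR-related protein that interacts with the splicing factor U2AF, stood at 5375 against 5285 in LAN5, 10652 against 11685 in IMR5 cells, 5220 against 4476 in SK-N-FI cells and 5944 against 6040 in SK-N-BE(2), GSK-J4 against untreated. Its changes were 0.02 ± 0.0768 in LAN5, -0.13 ± 0.0600 in IMR5 cells, 0.22 ± 0.104 in SK-N-FI cells and -0.02 ± 0.0443 in SK-N-BE(2), and none passed the test, although the value in IMR5 did (adjusted p = 0.037) when the adjustment covered only genes whose mean was 100 or more.

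TARDBP, the gene of TDP-43, which binds UG repeats and keeps cryptic exons out of messages, fell to 1341 against 1683 in LAN5, 1598 against 3475 in IMR5 cells and 1249 against 2133 in SK-N-FI cells, at log2 changes of -0.33 ± 0.0776 in LAN5, -1.12 ± 0.0934 in IMR5 cells and -0.77 ± 0.0915 in SK-N-FI cells. TRA2B, an SR-like activator of exons with GAA-rich enhancers, fell at -0.66 ± 0.0561 in LAN5, -1.01 ± 0.0639 in IMR5 cells and -0.64 ± 0.0872 in SK-N-FI cells. Its paralogue TRA2A passed the test in LAN5 only, at -0.29 ± 0.0661, and had -0.10 ± 0.0919 in IMR5 cells and 0.11 ± 0.113 in SK-N-FI cells. In SK-N-BE(2) these 3 genes lay between -0.08 and -0.01.

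PTBP1 and PTBP2 bind pyrimidine-rich tracts and repress exons, PTBP1 in most cell types and PTBP2 in young neurons. An upstream window of each is printed because both genes had the same pattern of calls. Each is the 250 bases before a RefSeq start site, touching no annotated exon, 5′ to 3′ on the gene's strand, with 82.4% G or C for PTBP1 and 55.2% for PTBP2. PTBP1 has a second start site in the table. Its window lies within annotated exons, has 69.2% G or C and is not printed.
PTBP1, chr19:797734-797983, plus strand: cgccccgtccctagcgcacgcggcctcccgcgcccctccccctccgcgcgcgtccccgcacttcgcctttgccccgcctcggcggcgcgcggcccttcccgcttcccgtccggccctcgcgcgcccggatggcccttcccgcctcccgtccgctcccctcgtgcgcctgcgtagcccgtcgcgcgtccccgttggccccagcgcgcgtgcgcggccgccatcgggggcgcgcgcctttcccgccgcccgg
PTBP2, chr1:96722388-96722637, plus strand: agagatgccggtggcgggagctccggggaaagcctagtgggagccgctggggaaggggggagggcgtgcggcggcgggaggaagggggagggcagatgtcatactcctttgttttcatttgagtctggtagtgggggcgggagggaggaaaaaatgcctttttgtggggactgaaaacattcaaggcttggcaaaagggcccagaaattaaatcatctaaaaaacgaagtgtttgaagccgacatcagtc
Neither window holds CACGTG, and no letters are in capitals.

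PTBP1 (ENSG00000011304, chromosome 19, 797075 to 812327, plus strand) had implied means of 3206 with GSK-J4 against 5218 untreated in LAN5, 6338 with GSK-J4 against 9595 untreated in IMR5 cells, 3824 with GSK-J4 against 3848 untreated in SK-N-FI cells and 7564 with GSK-J4 against 7873 untreated in SK-N-BE(2). PTBP2 (ENSG00000117569, chromosome 1, 96721665 to 96823738, plus strand) had 744 with GSK-J4 against 1498 untreated in LAN5, 967 with GSK-J4 against 2161 untreated in IMR5 cells, 902 with GSK-J4 against 806 untreated in SK-N-FI cells and 690 with GSK-J4 against 733 untreated in SK-N-BE(2). For both genes the treated level was the lower one in LAN5 and IMR5, and in SK-N-FI the means with and without GSK-J4 were close for PTBP1 and higher with GSK-J4 for PTBP2. Log2 changes of PTBP1 were -0.70 ± 0.0584 in LAN5, -0.60 ± 0.0612 in IMR5 cells, -0.01 ± 0.0798 in SK-N-FI cells and -0.06 ± 0.0440 in SK-N-BE(2), and those of PTBP2 were -1.01 ± 0.0760 in LAN5, -1.16 ± 0.0845 in IMR5 cells, 0.16 ± 0.111 in SK-N-FI cells and -0.09 ± 0.0750 in SK-N-BE(2). Both fell in LAN5 and IMR5, and neither passed the test in SK-N-FI (adjusted p = 0.951 and 0.285 in the authors' deposited table) or SK-N-BE(2). PTBP1 was above PTBP2 in level per kilobase in every line, for example 69.9 against 3.43 CPM per kilobase in SK-N-BE(2).

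In the resistant line the standard errors of the 33 genes were between 0.0339 and 0.0750 (HNRNPA1 and PTBP2). HNRNPM had 5589 treated and 6185 untreated, a change of -0.15 ± 0.0390 with an adjusted p of 0.0122 in the authors' deposited table. SRSF5 changed by -0.18 ± 0.0469, with an adjusted p of 0.0119 in that authors' deposited table. Neither passes at an adjusted p of 0.01. The 95% intervals of the members reached no lower than -0.27, for SRSF5, and no higher than 0.14, for HNRNPC.

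Differences between lines were tested with a two-sided Wald test on the effects, over 8969 genes whose mean was 100 or more in all 4 tables and with Benjamini-Hochberg adjustment over all of them. They share the fold changes that chose the members and are read as sizes. Averaged over LAN5, IMR5 and SK-N-FI, the effect was below that in SK-N-BE(2) for 29 members and above it for none, with a median difference of -0.62. Over all genes the median was -0.04, with 32.7% of genes below and 26.4% above. The largest differences were those of HNRNPM at -1.35 ± 0.0634, SRSF1 at -1.13 ± 0.0584 and SRSF2 at -0.98 ± 0.0749. The 4 genes not called were SRSF4 (95% interval -0.28 to 0.02), SRSF5 (-0.24 to 0.02), SRSF11 (-0.07 to 0.19) and TRA2A (-0.17 to 0.15).

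Some of these differences rest on 1 sensitive line. Without IMR5, the difference of HNRNPF went to 0.03 and those of SRSF6 and SRSF9 to -0.02 and -0.13, none of them called, while that of SRSF4 became a call at -0.35. Without LAN5, HNRNPL lost its call at -0.02 and SRSF5 gained one at -0.27. SRSF5 was also called without SK-N-FI, at -0.20. The other 25 members called kept their calls when each sensitive line was left out.

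**Figure D3:**
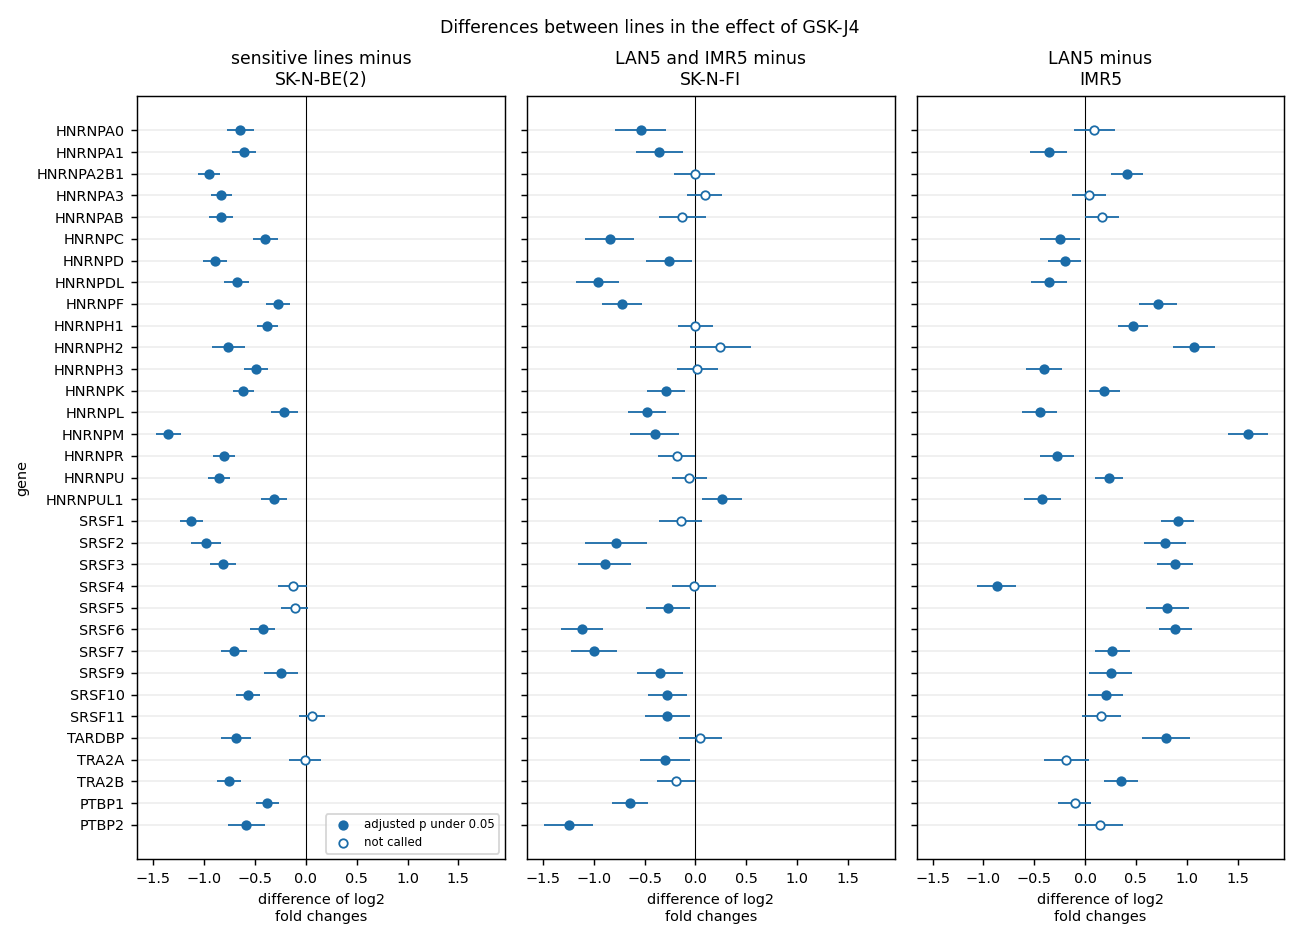
Differences of log2 fold changes between lines for the 33 genes, with 95% intervals, for the mean of the sensitive lines minus SK-N-BE(2), the mean of LAN5 and IMR5 minus SK-N-FI, and LAN5 minus IMR5; filled points had an adjusted p under 0.05. In the left panel 29 points are called below 0, in the middle 20 below and 1 above, and on the right 9 below and 17 above.

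LAN5 and IMR5, both MYCN-amplified, were set against SK-N-FI. Their mean effect was below that of SK-N-FI for 20 members and above it for HNRNPUL1, at 0.26 ± 0.0997. The members' median difference was -0.28, against -0.08 over all genes, of which 28.4% were below and 18.9% above. PTBP2 had the largest difference at -1.25 ± 0.125, followed by SRSF6 at -1.12 ± 0.104, SRSF7 at -1.0 ± 0.116 and HNRNPDL at -0.96 ± 0.106. SRSF3, HNRNPC and SRSF2 followed with -0.89 ± 0.132, -0.84 ± 0.123 and -0.78 ± 0.154. No difference was called for the A/B genes HNRNPA2B1 (95% interval -0.21 to 0.19), HNRNPA3 (-0.08 to 0.26) and HNRNPAB (-0.36 to 0.10), nor for SRSF1 (-0.36 to 0.07) and TARDBP (-0.17 to 0.26). When each line was centred on its median gene, HNRNPD, SRSF5, SRSF11 and TRA2A lost their calls.

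LAN5 and IMR5 share sensitivity and MYCN amplification, and yet a difference was called for 26 members, 9 with a lower effect in LAN5 and 17 with a higher one. Centred on the median gene of each line, 7 were lower and 19 higher: HNRNPC (adjusted p = 0.123) and HNRNPD (0.177) lost their calls, and HNRNPAB (0.0115) and SRSF11 (0.0311) gained one. Over all genes 33.6% were lower and 27.3% higher. The members' median difference was 0.19, and that of all genes was -0.06. HNRNPM differed by 1.60 ± 0.10, HNRNPH2 by 1.07 ± 0.105, SRSF1 by 0.91 ± 0.0840, SRSF6 by 0.89 ± 0.0822 and SRSF3 by 0.88 ± 0.0885, each with the deeper fall in IMR5 cells. On the other side stood SRSF4 at -0.87 ± 0.0977, HNRNPL at -0.45 ± 0.0886, HNRNPUL1 at -0.42 ± 0.0914 and HNRNPH3 at -0.40 ± 0.0888, with the deeper fall or the only one in LAN5. All 8 SR genes that fell in IMR5 had a called difference in the direction of the deeper fall there.

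**Figure D4:**
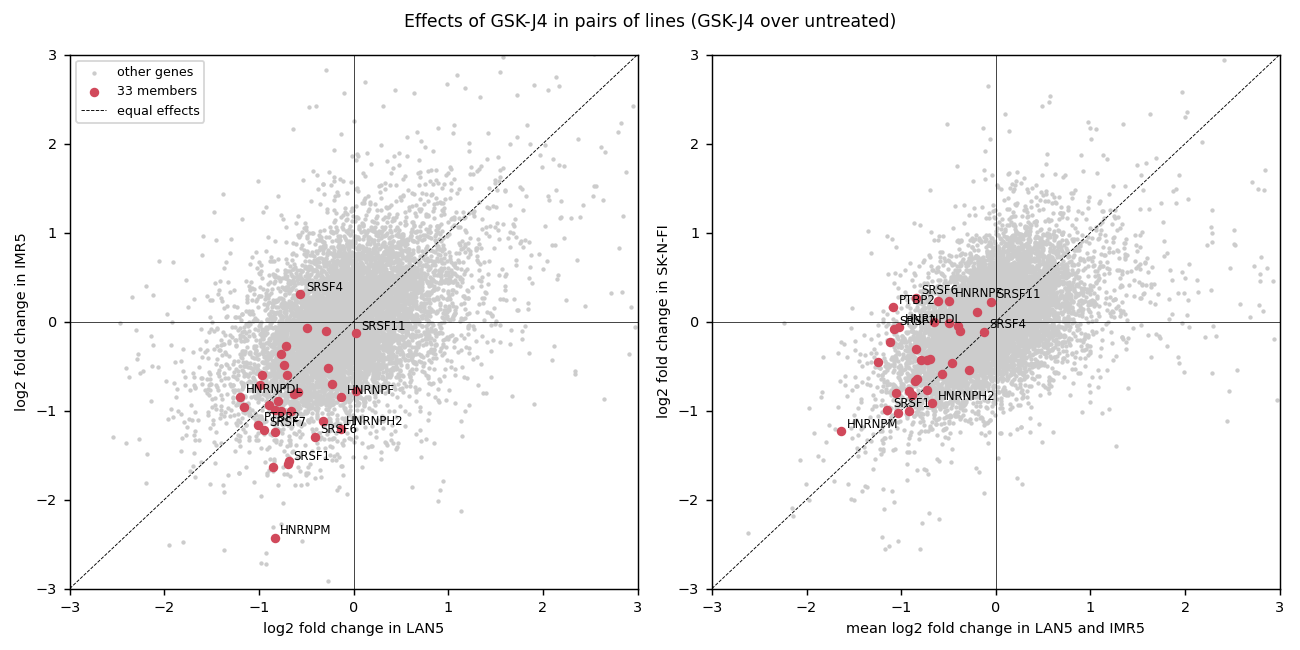
Log2 fold change with GSK-J4 in LAN5 (left, horizontal axis) against IMR5, and the mean of LAN5 and IMR5 (right, horizontal axis) against SK-N-FI, for genes whose mean was 100 or more in all tables; red points are the 33 members, the dashed line marks equal effects, and genes beyond the axis limits are not drawn. HNRNPM lies at -2.43 in IMR5 against -0.83 in LAN5, and SRSF6, HNRNPF and PTBP2 lie above 0 in SK-N-FI cells.

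Across the 33 members, the effects in pairs of lines had Pearson correlations of 0.27 between LAN5 and IMR5, 0.29 between LAN5 and SK-N-FI and 0.47 between IMR5 and SK-N-FI. Over all 8969 genes they were 0.47, 0.40 and 0.46. With SK-N-BE(2) the members gave -0.03 for LAN5, 0.05 for IMR5 cells and 0.14 for SK-N-FI cells. Genes are not independent replicates, and these values only describe the tables.

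Other genes of the splicing machinery were counted from lists assembled with earlier results of these data known. Of all genes tested, 19.2% fell and 22.5% rose in LAN5, and 21.6% fell and 22.6% rose in IMR5 cells. In SK-N-FI 14.8% fell and 16.8% rose, and in SK-N-BE(2) 0.858% fell and 1.62% rose. Where the mean was 500 or more, 44.0%, 40.1%, 23.2% and 1.25% fell in that order of lines. Of other hnRNP and SR family genes, 13 of 18 fell and 2 rose in LAN5, 9 of 19 fell and 8 rose in IMR5 cells, 6 of 19 fell and 3 rose in SK-N-FI cells, and 3 of 19 fell and none rose in SK-N-BE(2). Among the genes that fell in all 3 sensitive lines were SYNCRIP, RBMX and EWSR1. SYNCRIP, a close relative of HNRNPR, had -0.95 in LAN5, -1.20 in IMR5 cells and -0.50 in SK-N-FI cells, and RBMX, the hnRNP G gene, -0.89 in LAN5, -0.94 in IMR5 cells and -0.46 in SK-N-FI cells. EWSR1, the gene of an RNA-binding protein, had -0.25 in LAN5, -0.77 in IMR5 cells and -0.58 in SK-N-FI cells. The cold-inducible RNA-binding genes CIRBP and RBM3 fell in SK-N-BE(2), at -0.23 ± 0.0466 and -0.43 ± 0.0530.

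The core spliceosome, 45 proteins that make up or drive the splicing particles, had 28 genes lower and 5 higher in LAN5, 34 lower and 4 higher in IMR5 cells, 10 lower and 6 higher in SK-N-FI cells, and 2 lower in SK-N-BE(2). Its median log2 changes were -0.32, -0.44, -0.02 and -0.05 in that order. The Sm protein gene SNRPD1 had -0.67 in LAN5, -0.92 in IMR5 cells and -0.50 in SK-N-FI cells, SNRPF -0.83 in LAN5, -0.76 in IMR5 cells and -0.53 in SK-N-FI cells, the helicase gene DDX23 -0.72 in LAN5, -1.0 in IMR5 cells and -0.39 in SK-N-FI cells, and CDC5L -0.89 in LAN5, -0.38 in IMR5 cells and -0.60 in SK-N-FI cells. PRPF3 and SF3B4 fell in SK-N-BE(2), at -0.23 ± 0.0495 and -0.18 ± 0.0551. The adjusted p of SF3B4 was 0.0452 in the authors' deposited table, and 1 gene of the list was left when the adjustment ran over all genes with a p-value.

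Genes that phosphorylate SR proteins or carry them into the nucleus did not move as one. Of 10, 2 fell and 3 rose in LAN5 (2 and 5 when centred on the median gene), 1 fell and 5 rose in IMR5 cells, 2 fell and 6 rose in SK-N-FI cells, and none was called in SK-N-BE(2). SRPK1, the main cytoplasmic SR kinase, fell (-0.66 in LAN5, -0.40 in IMR5 cells and -0.38 in SK-N-FI), while its paralogue SRPK2 rose (0.44 in LAN5, 0.77 in IMR5 cells and 0.46 in SK-N-FI) and so did the nuclear kinase gene CLK3 (0.28 in LAN5, 0.69 in IMR5 cells and 0.91 in SK-N-FI). In SK-N-BE(2) the 3 genes had 0.14 ± 0.0487, 0.11 ± 0.0680 and 0.03 ± 0.0800, none called.

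Splicing regulators with tissue-restricted expression, such as the ELAVL, NOVA and RBFOX genes of neurons, fell for 15 of 22 and rose for 2 in LAN5. In IMR5 3 of 22 fell and 11 rose, in SK-N-FI 4 of 21 fell and 7 rose, and in SK-N-BE(2) none of 17 was called. MBNL3, a muscleblind protein, was the one gene of this list that fell in all 3 sensitive lines (-0.24 in LAN5, -1.22 in IMR5 cells and -0.96 in SK-N-FI). Nonsense-mediated decay factors fell for 3 of 14 in LAN5, 8 in IMR5 cells and 2 in SK-N-FI and rose for 2, 2 and 3, while centring on the median gene gave 3 lower and 5 higher in LAN5. RBM8A, a subunit of the exon junction complex, fell in each (-0.36 in LAN5, -1.32 in IMR5 cells and -0.57 in SK-N-FI).

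Splicing coactivators and nuclear RNA-binding proteins fell for 19 of 25 and rose for 1 in LAN5, fell for 14 and rose for 6 in IMR5 cells, fell for 9 and rose for 6 in SK-N-FI cells, and none was called in SK-N-BE(2). SFPQ, a paraspeckle protein needed for long neuronal genes, had -1.01 in LAN5, -1.12 in IMR5 cells and -0.84 in SK-N-FI cells, KHSRP, which promotes the decay of AU-rich mRNAs, -0.58 in LAN5, -0.79 in IMR5 cells and -0.44 in SK-N-FI cells, and the matrix protein gene SAFB -0.42 in LAN5, -0.84 in IMR5 cells and -0.41 in SK-N-FI cells. The counts of all these lists are a description beside the shares over all genes, and nothing is read from them. In SK-N-FI, for example, 10 of 45 core spliceosome genes fell, against 23.2% of genes whose mean was 500 or more. In LAN5 3 of 14 nonsense-mediated decay factors fell, against 19.2% of all genes tested and 44.0% of those with such a mean.

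**Figure D5:**
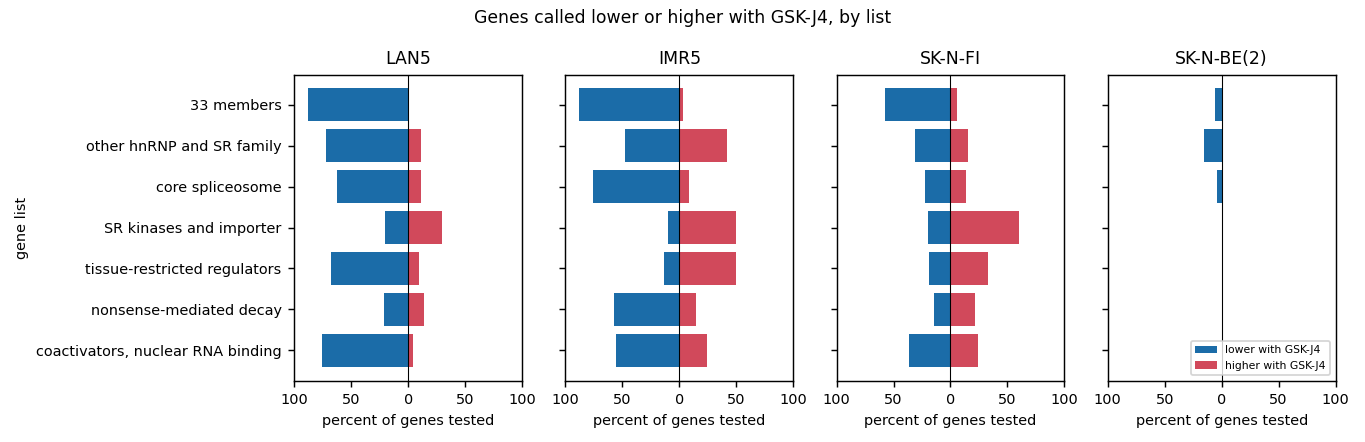
Percent of tested genes called lower (blue, to the left) or higher (red, to the right) with GSK-J4 in each line, for the 33 members and 6 other lists of splicing and RNA-binding genes. Lower calls outnumber higher ones for the members in every line, while the SR kinase list has more higher than lower calls in the 3 sensitive lines. Of all genes tested, 19.2%, 21.6%, 14.8% and 0.858% are lower in LAN5, IMR5, SK-N-FI and SK-N-BE(2), and 22.5%, 22.6%, 16.8% and 1.62% higher. Higher calls thus outnumber lower ones over all genes tested too, and nothing is read from the lists.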

How the data were processed

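TriZol-extracted total RNA was captured by its poly(A) tail and made into stranded libraries with a KAPA kit, per the labels' protocols. The submitters' processing notes name FastQC, STAR, DESeq2 and the genome build hg38 without versions. The sources used here do not give the annotation, the counting tool and its use of strand, the design formula, or which group is on top of the contrast. The authors deposited 1 comparison table per line. In it the signal is the mean normalized count over the libraries, the log2 fold change and the standard error beside it are on the log2 scale, the Wald statistic is a score, and p-values with and without adjustment are the authors' own, per the file headers. Nothing says whether the 3 libraries of a group came from separate cultures, so these p-values measure the spread between libraries, which may be technical. The depth of a library is unknown, so no interval or floor based on it appears.

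The members and all gene lists were chosen with earlier results of these data known. Calls use an adjusted p under 0.05 in the authors' deposited tables. The normal prior implied by the largest standard error of each table was removed from fold changes and errors. In the SK-N-BE(2) table the statistic equals fold change over standard error less closely than in the others. The gap was within 8.67e-05 for members and reached 1.33 over all genes. Lines were compared with a two-sided Wald test on these values with Benjamini-Hochberg adjustment over 8969 genes. The computation was run on simulated data shrunken with the same form of prior that it removes. That run cannot show whether this prior is the one behind the deposited values. All 33 members are named. Of each other list, up to 4 genes with 1 direction of call in all 3 sensitive lines, ranked by their smallest change, and every gene called in SK-N-BE(2) were to be named, and marker genes are given as counts. Some genes that this rule names are not reported here. The background of genes whose mean was 500 or more and the longest coding transcript as length were added after the data were seen. Gene models came from GENCODE v29 and promoters from RefSeq (GRCh38.p14). Python 3.11.15, pandas 2.3.3, numpy 2.4.6, SciPy 1.17.1 and matplotlib 3.10.9 were used.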

Additional observations from a re-analysis of the deposited data

Results flagged for a closer look

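Differences between lines in the effect of GSK-J4 are collected here as sizes. A difference is counted where its adjusted p was under 0.05 (two-sided Wald test, adjusted over 8969 genes), but the members were chosen on these fold changes, so the counts support nothing. The mean effect of the 3 sensitive lines was below that in SK-N-BE(2) for 29 of 33 members, with HNRNPM at -1.35 ± 0.0634, SRSF1 at -1.13 ± 0.0584 and SRSF2 at -0.98 ± 0.0749 on the log2 scale. Over all genes, 32.7% were below and 26.4% above in that comparison. For the mean effect of LAN5 and IMR5 against that in SK-N-FI, 28.4% of all genes were below and 18.9% above. That effect was counted as different from SK-N-FI for 21 members. Among them HNRNPF had -0.73 ± 0.10, SRSF6 -1.12 ± 0.104, SRSF7 -1.0 ± 0.116 and PTBP2 -1.25 ± 0.125. Between LAN5 and IMR5, 33.6% of all genes were lower in LAN5 and 27.3% higher. LAN5 and IMR5 were counted as different for 26 members. Their effects were higher in LAN5 for HNRNPF at 0.72 ± 0.0959, HNRNPH2 at 1.07 ± 0.105, HNRNPM at 1.60 ± 0.10, SRSF1 at 0.91 ± 0.0840 and SRSF6 at 0.89 ± 0.0822, and lower for SRSF4 at -0.87 ± 0.0977. Resistance and wildtype MYCN are each represented by 1 line, so neither can be told apart from the line itself.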

How the results depend on the processing

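The total counts of members called in LAN5, IMR5 and SK-N-FI, and the counts of members that differed between lines, stayed within 1.5 times the reported values under every alternative run. In SK-N-BE(2) the count was 0 at an adjusted p under 0.01, against 2 at 0.05. The rises of HNRNPF and SRSF6 in SK-N-FI and the higher difference of HNRNPUL1 (amplified sensitive lines minus SK-N-FI) were also lost at 0.01, which left 0 higher calls in each. Without mitochondrially encoded genes in the total, the members summed to 17488 CPM in LAN5, 17415 in IMR5 cells, 11270 in SK-N-FI cells and 17225 in SK-N-BE(2). Each line was centred on the median log2 change of its genes whose mean was 100 or more. That median was -0.0871 in LAN5, -0.0139 in IMR5 cells, 0.00229 in SK-N-FI cells and 0.00176 in SK-N-BE(2). Centring therefore raised the effects in LAN5, although the median over all genes tested there was 0.12. It turned the sign of values that were called under neither scaling. These were TRA2A in sensitive minus resistant lines (0.0242), and HNRNPA2B1 (0.0444), HNRNPH1 (0.0516) and SRSF4 (0.0400) in the amplified sensitive lines minus SK-N-FI. Leaving out LAN5 turned SRSF4 (0.0885) and TRA2A (0.0864), leaving out IMR5 turned HNRNPF (0.0283, a called difference otherwise) and SRSF5 (0.139), and leaving out SK-N-FI turned SRSF11 (-0.0314). The causes were not tested. No single library could be left out and no other normalization of counts could be run, because values per library were not used here. No paired analysis was possible because the tables carry no values by replicate number. The deposited tables set the precision, since depth is unknown.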
